A study of Oryctolagus cuniculus with 16 samples.

Results

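Metabolic genes were followed in rabbit vein after graft surgery, namely ADH1A, SLC2A4, ECHS1, ECI2 and HMGCLL1. These 5 were taken as a set of alcohol, fatty acid and glucose metabolism genes out of 2121 genes that could be named on the array, and all of their 17 probes among 43603 probes were used. The genes were chosen by name with their measured levels and differences in these same samples in view, so their values are given as a description, without a test. RNA from whole vein tissue of male rabbits was hybridised to single-colour Agilent rabbit arrays in 3 groups: 6 arrays of grafts taken 1 day after surgery (day 1), 6 arrays of grafts taken 7 days after surgery (day 7) and 4 arrays from animals with sham surgery (sham). No other treatment or genotype is labelled, strain and age are not given in the sources used here, and the sources used here do not say whether the arrays of a group came from separate animals.

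Alcohol dehydrogenases oxidise ethanol and retinol to the aldehydes. Fatty acids are broken down inside mitochondria and peroxisomes by beta-oxidation, in which each turn of the cycle hydrates and oxidises the chain and releases acetyl-CoA. In muscle and fat, glucose enters through GLUT4, a transporter that insulin moves from internal vesicles to the cell surface. ADH1A encodes a class I alcohol dehydrogenase, SLC2A4 encodes GLUT4, and ECHS1 encodes the mitochondrial enoyl-CoA hydratase of the beta-oxidation cycle. ECI2 encodes an enoyl-CoA isomerase that lets unsaturated fatty acids enter the cycle, and HMGCLL1 encodes a relative of HMG-CoA lyase, the enzyme that cleaves HMG-CoA in ketone body formation and leucine breakdown.

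Between 32973 and 36319 probes were well above background on each array. Levels are quantile-normalized signals on the log2 scale, so a difference of 1 is a 2-fold change, and the number of arrays limits their precision. Within day 1 and within day 7, the odd-numbered arrays differed among themselves by less than the noise between spots of the same probe, and so did the even-numbered arrays. Each such set was averaged and counted as 1 sample, which left 2 samples at day 1, 2 at day 7 and 4 at sham. Spreads between samples, and the p-values given for other genes, measure these samples only and may be technical. The sham arrays were scanned apart from the grafts, so scan and surgery cannot be told apart in any comparison with sham, while 3 scans each held arrays of both graft groups. Sham arrays 1 and 2 also stood apart from sham arrays 3 and 4, with 10.6% of probes at least 1 log2 unit apart between the pairs, and the values that this moves by over 1.5 times are given with and without each pair.

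All 5 genes had lower levels in the grafts than in sham. On day 1 all 17 probes were lower by at least 1 log2 unit with no overlap between samples, where 25.0% of all probes tested were, and the median difference was -2.40 over the 17 probes against 0.12 over all probes. On day 7 again all 17 probes were lower in this way, against a background of 16.1%, with medians of -3.20 and 0.04, the 1 probe that was not well above background on day 7 being taken at its bound. Since the genes were chosen with these values known, nothing is read from either count. Between day 7 and day 1 the genes parted: 10 probes were lower on day 7 by at least 1 log2 unit without overlap, 0 were higher and 7 were neither, where 20.5% of all probes were lower in this way and 22.3% higher. With the same probe at its bound, 9 were lower. In whole tissue, fewer cells of a type and less RNA per cell cannot be told apart.

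**Figure D1:**
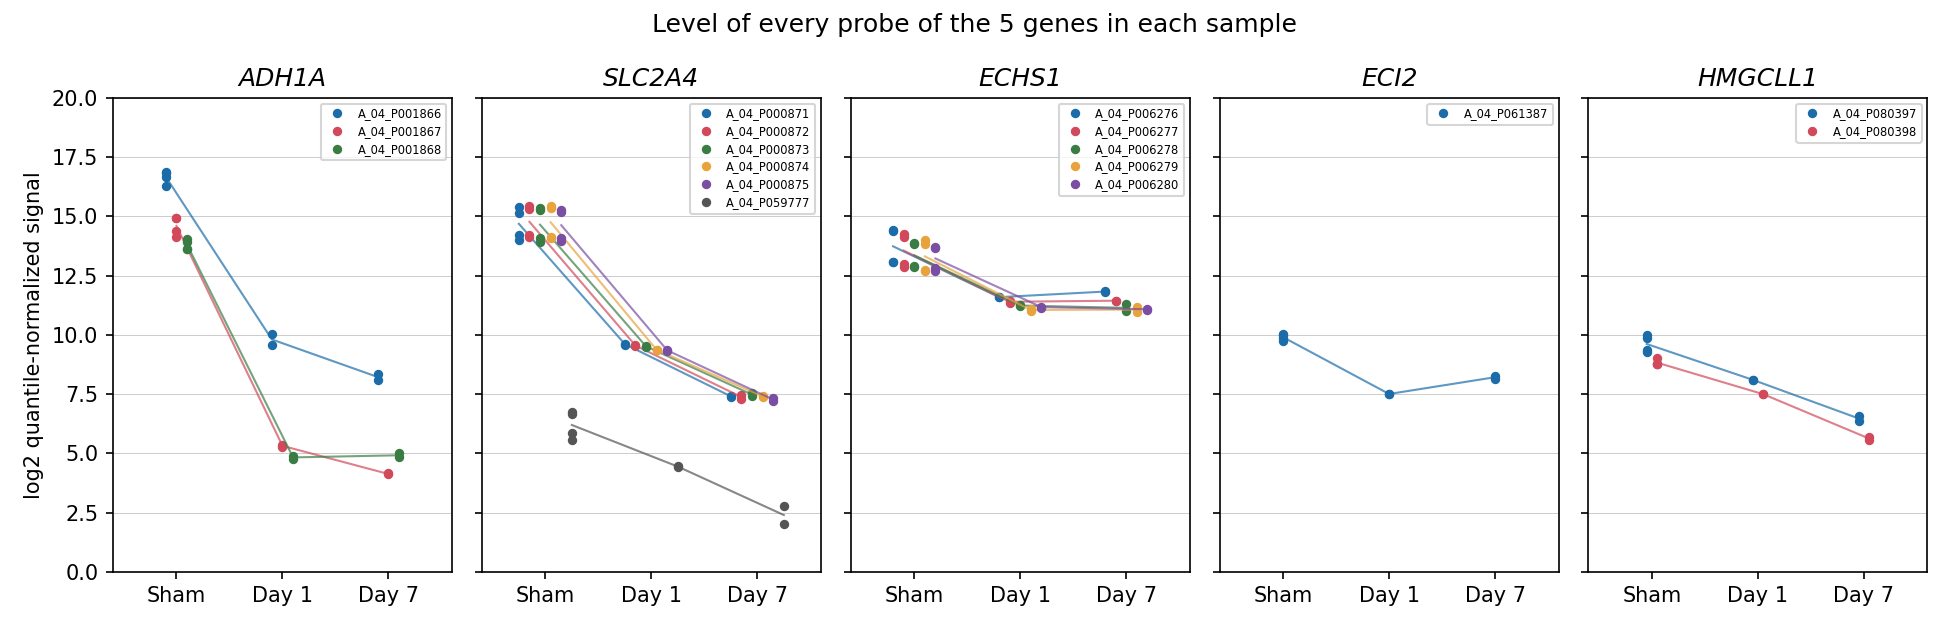
Log2 quantile-normalized signal (y axis) of every probe of the 5 genes in sham, day 1 and day 7 (x axis). Points are samples (4, 2 and 2), lines join group means and colours mark probes. The 8 bright probes of ADH1A and SLC2A4 stood at 13.6 or more in every sham sample and lay furthest below it in the grafts, while ECI2 was somewhat higher on day 7 than on day 1.

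ADH1A had the widest gap of the 5 genes. Its brightest probe, A_04_P001866, had log2 levels of 16.68, 16.27, 16.85 and 16.88 in the 4 sham samples, 10.04 and 9.58 on day 1, and 8.08 and 8.37 on day 7. The sham samples lay far above both graft groups, and day 7 lay below day 1 without overlap. The group means were 16.67 ± 0.28 (SD, n = 4), 9.81 ± 0.33 (SD, n = 2) and 8.22 ± 0.21 (SD, n = 2), so the level was 116-fold lower on day 1 and 348-fold lower on day 7. Before normalization, the processed signal of this probe ran from 38039 to 84858 on the sham arrays. It ran from 416 to 666 on day 1 and from 417 to 487 on day 7, so the graft groups overlapped, with medians of 544 and 452. The day 7 arrays were brighter as a whole. The upper quartile of the signals on an array ran from 863 to 1023 on day 1 and from 2488 to 2831 on day 7. In sham it ran from 1329 to 2026. The size of any step from day 1 to day 7, for this and the other genes, therefore depends on the normalization.

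The other probes of ADH1A gave larger differences. A_04_P001867 stood at 14.39, 14.14, 14.92 and 14.94 in sham, 5.36 and 5.29 on day 1, and 4.11 and 4.15 on day 7. This probe was lower on day 7 than on day 1 as well, with differences of -9.28 on day 1 and -10.47 on day 7 from sham. A_04_P001868 stood at 13.61, 13.65, 13.92 and 14.05 in sham, 4.91 and 4.76 on day 1, and 4.84 and 5.01 on day 7. Here day 1 and day 7 overlapped, so the probes of ADH1A disagree on a further drop after day 1. Both were near the detection limit in the grafts, since the lowest level well above background was between 3.46 and 3.91 on the graft arrays. Ranked by the brightest probe of each gene, ADH1A was the 31st lowest of 19318 genes on day 1 and the 9th lowest of 19296 on day 7.

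SLC2A4, the insulin-responsive glucose transporter, came next. Its brightest probe, A_04_P000871, had levels of 14.23, 14.00, 15.38 and 15.14 in sham, 9.59 and 9.64 on day 1, and 7.39 and 7.43 on day 7. The 3 groups did not overlap and lay in the order sham, day 1, day 7. Group means were 14.69 ± 0.67 (SD, n = 4), 9.62 ± 0.029 (SD, n = 2) and 7.41 ± 0.029 (SD, n = 2), which is 33.7-fold lower on day 1 and 155-fold lower on day 7 than in sham. The other 4 bright probes gave like values, and over the 5 the difference from sham lay between -5.39 and -5.08 on day 1 and between -7.40 and -7.17 on day 7.

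The sixth probe of SLC2A4, A_04_P059777, was dim throughout. It had levels of 5.55, 5.85, 6.74 and 6.66 in sham, 4.45 and 4.44 on day 1, and 2.77 and 2.04 on day 7, where it was not well above background on any array. Its order of groups was that of the bright probes. Against the detection limit of the day 7 arrays, sham was at least 5.78-fold higher than day 7 and day 1 at least 1.71-fold higher. SLC2A4 ranked 198th lowest of 19318 genes on day 1 and 23rd lowest of 19296 on day 7.

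**Figure D2:**
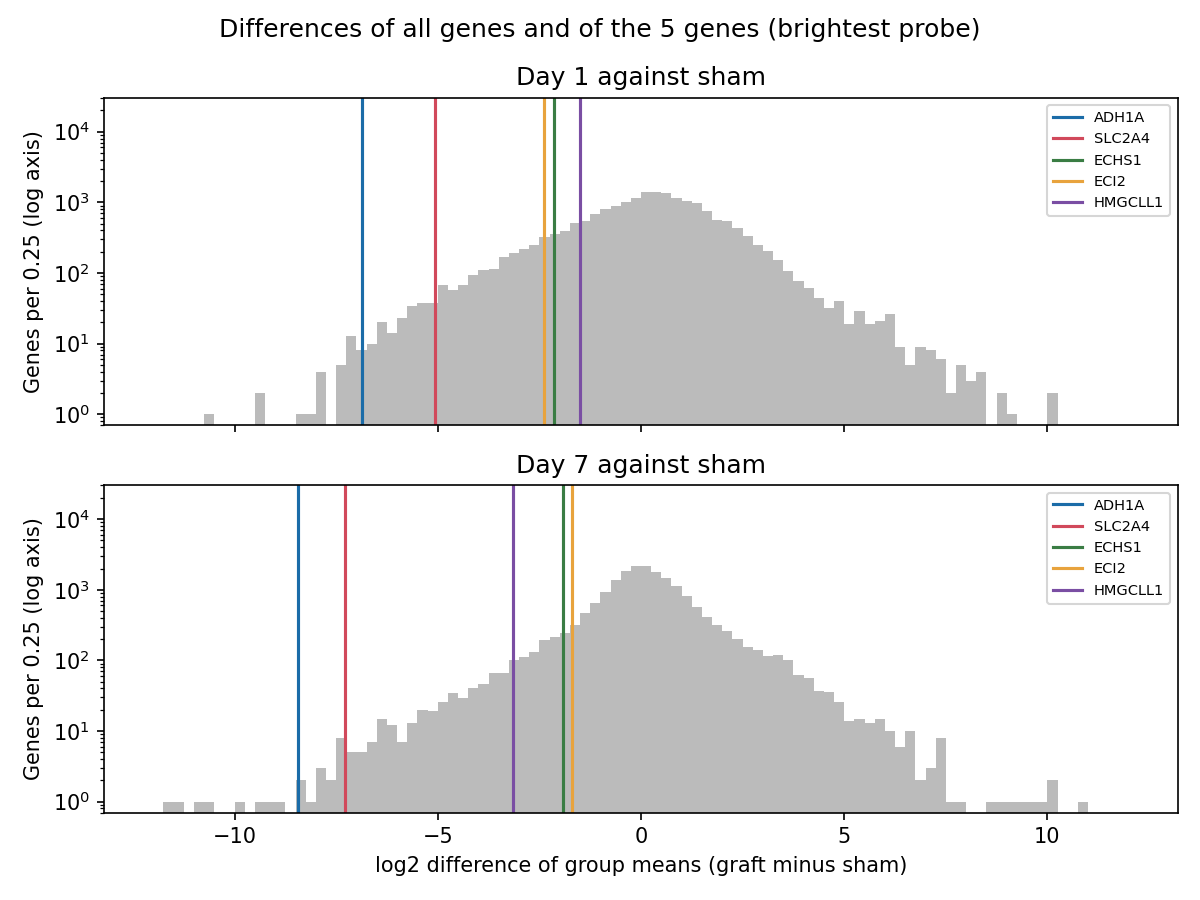
Number of genes (y axis, log scale) at each log2 difference from sham (x axis, bins of 0.25, brightest probe of each gene) on day 1 and on day 7, with coloured lines at the 5 genes. ADH1A at -6.86 and -8.44 and SLC2A4 at -5.08 and -7.28 lay in the far lower tail on both days, while ECHS1 and ECI2 lay nearer to the bulk of genes.

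The beta-oxidation genes ECHS1 and ECI2 had smaller gaps from sham. For ECHS1, probe A_04_P006276 had levels of 13.10, 13.07, 14.42 and 14.37 in sham, 11.58 and 11.61 on day 1, and 11.85 and 11.81 on day 7. Sham lay above both graft groups, and day 7 lay slightly above day 1. Group means were 13.74 ± 0.76 (SD, n = 4), 11.59 ± 0.015 (SD, n = 2) and 11.83 ± 0.027 (SD, n = 2), so the level was 4.43-fold lower on day 1 and 3.76-fold lower on day 7. Over its 5 probes the difference from sham lay between -2.27 and -2.06 on day 1 and between -2.25 and -1.91 on day 7. Day 7 differed from day 1 by between -0.10 and 0.24, with 2 of the 5 probes not overlapping (90.1% of all probes did not) and these in opposite directions, so no change from day 1 to day 7 is given for ECHS1. These probes carry a transcript identifier and were named through the gene number that the study's normalized table pairs with it, whereas the other 4 genes were named by RefSeq accession.

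ECI2 had 1 probe, A_04_P061387, with levels of 9.74, 9.87, 9.99 and 10.02 in sham, 7.51 and 7.50 on day 1, and 8.15 and 8.28 on day 7. The sham samples were close together, and day 7 lay between day 1 and sham with no overlap. Means were 9.91 ± 0.13 (SD, n = 4), 7.51 ± 0.0060 (SD, n = 2) and 8.22 ± 0.092 (SD, n = 2), which is 5.27-fold lower on day 1 and 3.22-fold lower on day 7 than in sham. The day 7 level of ECI2 was above its day 1 level by 0.71 log2 units, and by 0.37 when arrays were scaled to the 75th percentile.

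HMGCLL1 was below sham on day 1 and lower again on day 7. Probe A_04_P080397 had levels of 10.00, 9.86, 9.28 and 9.34 in sham, 8.12 and 8.10 on day 1, and 6.35 and 6.60 on day 7. Probe A_04_P080398 had levels of 8.77, 9.02, 8.77 and 8.76 in sham, 7.51 and 7.49 on day 1, and 5.55 and 5.70 on day 7. In both probes the 3 groups were apart, in the order sham, day 1, day 7. The first probe was 2.85-fold lower on day 1 and 8.82-fold lower on day 7, and the second was 2.51-fold and 9.21-fold lower. The difference between day 7 and day 1 was -1.63 and -1.87 log2 units. By the brightest probe it was -0.92 with another background correction (normexp) and -2.09 when arrays were scaled to the 75th percentile.

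Because each graft scan held both days, the step from day 1 to day 7 could be read within scans. For the brightest probe of ADH1A it was -1.58, -1.60 and -1.58 in the 3 scans, and for that of SLC2A4 it was -2.20, -2.19 and -2.22. ECI2 gave 0.72, 0.68 and 0.72, and the first HMGCLL1 probe gave -1.64, -1.59 and -1.66. The sizes within scans were close to the pooled values, but the arrays in different scans were also those counted as 1 sample, so they are not separate evidence.

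The spread among sham arrays differed by gene. SLC2A4 was higher in sham arrays 3 and 4 than in arrays 1 and 2 by 1.00 to 1.30 over its 6 probes, and ECHS1 by 0.93 to 1.31 over its 5. ADH1A was higher there by 0.36 to 0.66 and ECI2 by 0.20, whereas HMGCLL1 was lower by 0.62 and 0.13. Adipocyte markers moved between the same pairs. LPL, the lipase that releases fatty acids from lipoproteins, was at 10.03 and 10.13 in arrays 1 and 2 and at 16.92 and 16.88 in arrays 3 and 4. PPARG, the regulator of fat cell formation, was at 10.41 and 10.38 against 12.53 and 12.57, and ADIPOQ, the fat cell hormone adiponectin, at 8.66 and 8.60 against 10.11 and 10.07. LEP, the hormone leptin, was at 5.11, 5.36, 5.40 and 5.24 and did not follow the pairs. DES, the muscle filament protein desmin, went the other way, at 12.70 and 12.64 against 10.33 and 10.27.

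**Figure D3:**
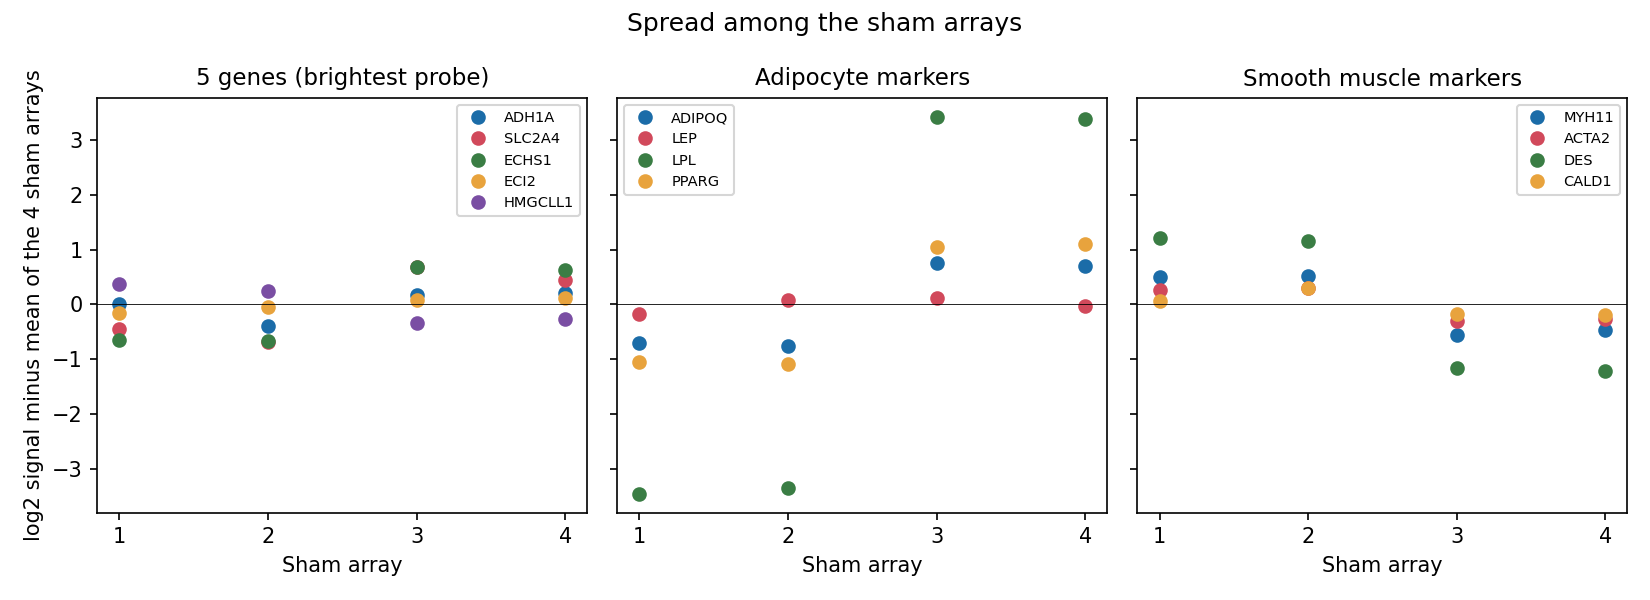
Log2 signal of each sham array minus the mean of the 4 (y axis) by array number (x axis) for the 5 genes, adipocyte markers and smooth muscle markers. Each point is 1 array. SLC2A4, ECHS1, ADIPOQ, PPARG and LPL were higher in arrays 3 and 4, and the smooth muscle markers and HMGCLL1 were lower there.

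Taking the sham level from either pair kept the difference of every gene below 0. Without sham arrays 3 and 4, the day 1 difference was -1.49 for ECHS1 and -4.50 for SLC2A4. Without sham arrays 1 and 2 it was -2.80 and -5.65. For ECHS1 on day 7 the values were -1.26 without arrays 3 and 4 and -2.57 without arrays 1 and 2. HMGCLL1 moved the other way, to -1.82 and -1.20 on day 1. Over all 17 probes, the lower sham pair lay above the highest graft array by at least 1.11 log2 units.

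Markers of other cells in the vein wall also differed between sham and graft, and their part in the values of the 5 genes was not tested. Of 16 adipocyte markers listed, 4 were measured, and their summed level ran from 11.47 to 17.00 in sham, 11.46 to 11.48 on day 1 and 10.55 to 10.62 on day 7 (log2 scale). In sham arrays 3 and 4 and on day 1 this sum was mostly LPL. On day 1 LPL was at 11.11 and 11.08, above its level in sham arrays 1 and 2, and limma called it on neither day. By limma 2 of the 4 fell on day 1 and 1 on day 7, where 22.0% and 13.6% of all genes fell, and 0 rose. ADIPOQ was not well above background on any day 1 array, and it was at 4.96 and 4.83 on day 7. Of 12 smooth muscle markers, 4 were measured, summing to between 18.93 and 19.58 in sham, 17.47 and 17.48 on day 1, and 18.03 and 18.19 on day 7. MYH11, the smooth muscle myosin heavy chain, was at 17.18, 17.19, 16.11 and 16.20 in sham, 11.33 and 11.36 on day 1, and 9.86 and 10.50 on day 7. ACTA2, smooth muscle actin, was at 18.47, 18.50, 17.89 and 17.94 in sham, 13.09 and 13.02 on day 1, and 17.59 and 17.83 on day 7, and its day 7 difference of -0.49 was not called. CALD1, caldesmon, differed from sham by -0.28 on day 1, which was not called, and fell by 1.62 on day 7 (limma, adjusted p = 0.000107). Of 11 endothelial markers, 4 were measured, summing to between 12.15 and 12.26 in sham, 10.85 and 10.88 on day 1, and 9.01 and 9.03 on day 7. This sum was carried by EDNRB, an endothelin receptor, at a mean of 12.04 in sham. KDR, a receptor for vascular endothelial growth factor, was well above background on all 4 sham arrays and on no graft array, but was dim in sham as well, at 4.24 to 4.95. By limma 3 of the 4 fell on each day, and SELE, the adhesion molecule E-selectin, was not called (0.52 on day 1 and -0.05 on day 7). Of 8 fibroblast markers, 3 were measured. They summed to between 19.94 and 20.02 in sham, 17.09 on day 1 and between 19.63 and 19.67 on day 7, so the sum was lowest on day 1. COL1A2 was its largest part, at a mean of 19.02 in sham and on day 7. By limma all 3 fell on day 1. On day 7, 1 did, DCN at -1.89 (adjusted p = 9.22e-06), where 22.0% and 13.6% of all genes fell on the 2 days.

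Skeletal muscle, where SLC2A4 is also abundant, had 9 of 16 markers measured, and their summed level was 9.84 to 10.29 in sham, 13.40 to 13.44 on day 1 and 10.07 to 10.17 on day 7. By limma 7 of these 9 rose on day 1, where 28.9% of all genes rose, and PYGM, the muscle glycogen phosphorylase, fell by 1.01 (adjusted p = 0.0245). ATP2A1, the calcium pump of fast muscle, rose by 7.26 (adjusted p = 2.23e-06). CKM, the muscle creatine kinase, was well above background on every day 1 array and on no day 7 array. On day 7, 4 of the 9 markers were called higher and 2 lower, where 17.6% and 13.6% of all genes were. The day 7 sum close to sham therefore does not mean that each marker was back at its sham level. Leukocyte markers, of which 5 of 13 were measured, summed to between 10.92 and 11.97 in sham, 17.07 and 17.11 on day 1, and 16.68 and 16.81 on day 7. ADH1A is a liver gene as well, and 2 of 6 hepatocyte markers were measured, with a summed level of 16.75 to 17.39 in sham, 12.92 on day 1 and 12.50 to 12.71 on day 7. This sum was carried by TF, the iron carrier transferrin, at a mean of 17.08 in sham. ALB, the serum albumin of hepatocytes, was at 4.26, 3.98, 5.15 and 5.30 in sham, close to the detection limit.

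Genes with the most similar course were sought among 1759 other named genes detected on all 16 arrays, by the root-mean-square (RMS) difference of centred log2 levels over the 8 samples. Nearest to SLC2A4 was FMO1, a flavin-containing monooxygenase, with an RMS difference of 0.20. FMO1 had mean levels of 13.78, 8.87 and 6.75 in sham, day 1 and day 7. SLC22A3, an organic cation transporter, and PENK, which encodes proenkephalin, followed at 0.66 and 0.69. Nearest to ADH1A were LOC100328910 at 0.49, FMO1 at 0.94 and MYH11 at 1.03, and between ADH1A and SLC2A4 themselves the RMS difference was 0.83. FMO1 therefore stood among the nearest for both genes with the widest gaps.

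Nearest to ECI2 were MB21D2 at 0.094, FAM149A at 0.10 and CYP27A1, a sterol hydroxylase, at 0.15. Nearest to HMGCLL1 were PTGDS, a prostaglandin D synthase, at 0.17, AOX1, an aldehyde oxidase, at 0.18, and NOS3, the endothelial nitric oxide synthase, at 0.19. Nearest to ECHS1 were LSAMP at 0.30, BOC at 0.34 and API5 at 0.34. The 8 samples share the same 3 groups and the split of the sham arrays, so likeness is a description of these arrays, and the RMS difference also grows with the size of a gap.

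To set the 5 genes in their pathways, 39 other genes from 5 metabolic lists were tested by limma, in which a call needs an adjusted p below 0.05 and a log2 change of at least 1. Of these, 12 fell and 7 rose on day 1, where 22.0% of all genes fell and 28.9% rose, and 9 fell and 7 rose on day 7, where 13.6% fell and 17.6% rose. From day 1 to day 7, 7 fell and 7 rose, where 22.3% of all genes fell and 19.3% rose. The median change over the 39 was -0.05 on day 1 and 0.01 on day 7, beside 0.26 and 0.05 over all genes. The lists held 207 genes, and most could not be named on this array, so each list is seen only in part. When arrays were scaled to the 75th percentile, the split on day 1 was 9 lower and 9 higher, with 70.0% of all calls higher in place of 56.8%.

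The alcohol, aldehyde and retinoid list had 8 of its 40 genes measured. On day 1, 6 fell and 0 rose, and on day 7, 3 fell and 0 rose, with median changes of -1.56 and -1.16. ALDH1A1, which makes retinoic acid from retinal, changed by -3.01 ± 0.46 (SE, adjusted p = 0.000737) on day 1 and -3.01 ± 0.46 (SE, adjusted p = 0.00119) on day 7. RBP4, the plasma retinol carrier, changed by -3.27 ± 0.51 (SE, adjusted p = 0.000826) on day 1 and -2.30 ± 0.51 (SE, adjusted p = 0.00694) on day 7. AKR1C5, an aldo-keto reductase matched through a synonym, changed by -3.32 ± 0.52 (SE, adjusted p = 0.000812) on day 1 and -1.83 ± 0.52 (SE, adjusted p = 0.0196) on day 7. The day 7 call of AKR1C5 was lost without either day 7 sample. Without sham arrays 3 and 4 the day 7 change was -1.05 for AKR1C5 and -1.53 for RBP4, and without arrays 1 and 2 it was -2.62 and -3.08. The day 1 change was -2.53 for AKR1C5 and -2.49 for RBP4 without arrays 3 and 4, and -4.11 and -4.05 without arrays 1 and 2. For ALDH1A1 the change on either day was -3.70 without arrays 3 and 4 and -2.31 without arrays 1 and 2. On the reference assembly, ADH1A lies near 2 measured relatives, ADH2-1 and ADH5, with 3 and 5 protein-coding genes between, and these were looked at after their values were seen. ADH5, the widely expressed class III enzyme, changed by -1.60 on day 1 (adjusted p = 0.000371) and by -0.40 on day 7 (adjusted p = 0.153), and it rose from day 1 to day 7 by 1.20 (adjusted p = 0.00457), whereas the brightest probe of ADH1A was lower on day 7 than on day 1. ADH2-1 changed by -1.20 on day 1 (adjusted p = 0.00055) and by -0.71 on day 7, which did not reach the fold needed for a call. On day 1 ADH2-1 stood at a mean of 4.03, close to the detection limit, and was well above background on 5 of 6 arrays.

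The beta-oxidation list had 6 of 50 genes measured, with 2 falling and 0 rising on day 1, and 1 falling and 1 rising on day 7. SLC25A20, the carrier that takes acylcarnitines into mitochondria, changed by -3.43 ± 0.42 (SE, adjusted p = 0.00021) on day 1 and by -1.05 ± 0.42 (SE, adjusted p = 0.0666) on day 7, and rose from day 1 to day 7 by 2.39 (adjusted p = 0.00398). Its day 7 change was -0.42 without sham arrays 3 and 4 and -1.67 without arrays 1 and 2. The latter was called, but leaving out a pair also takes away the spread between the sham pairs. Such a call cannot be set beside those made with all 4 sham samples. The day 7 change of SLC25A20 was also called without array 1 alone or array 2 alone. Its course, low on day 1 and nearer to sham on day 7, had the same order of groups as that of ECI2. ACOX2, a peroxisomal oxidase, changed by -5.88 ± 1.12 (SE, adjusted p = 0.00221) on day 1 and -4.95 ± 1.12 (SE, adjusted p = 0.00739) on day 7, with a sham SD of 1.97. Without sham arrays 3 and 4 these were -4.18 and -3.25, and without arrays 1 and 2 they were -7.58 and -6.65. The day 7 call was lost without day 7 sample 1. On day 1 ACOX2 stood at a mean of 3.94, close to the detection limit, and was well above background on 4 of 6 arrays. The size of its day 1 change is therefore uncertain. ACSL6, which activates long-chain fatty acids, had a log2 difference of -0.84 on day 1 (adjusted p = 0.0501) and rose by 2.88 ± 0.33 (SE, adjusted p = 0.000265) on day 7. Its day 1 difference was -0.35 without sham arrays 1 and 2 and -1.32 without arrays 3 and 4, the latter called with the same limit. This difference was also called at -1.01 without array 4 alone. Of the ketone body and branched-chain list, OXCT1 was the 1 gene measured of 31. OXCT1, which activates ketone bodies for use, was not called against sham on either day (-0.97 and 0.34) and rose from day 1 to day 7 by 1.31 (adjusted p = 0.000119).

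The insulin response and GLUT4 trafficking list had 7 of 37 genes measured, with 2 falling and 3 rising on day 1, and 1 falling and 0 rising on day 7. PRKCZ, an atypical protein kinase C, changed by -2.80 ± 0.16 (SE, adjusted p = 4.71e-06) on day 1 and -4.57 ± 0.16 (SE, adjusted p = 1.34e-06) on day 7. It was the gene of this list that fell against sham on both days and again from day 1 to day 7 (-1.77, adjusted p = 0.00017). INSR, the insulin receptor, rose by 2.04 ± 0.10 (SE, adjusted p = 2.45e-06) on day 1 and had a log2 difference of -0.39 on day 7, below the fold needed. RAB10, a small GTPase of GLUT4 vesicles, rose by 2.34 ± 0.60 (SE, adjusted p = 0.0092) on day 1 by its brightest probe, but by 0.89 as the mean of its probes, which did not reach the fold, and this call was lost without day 1 sample 2. Without sham arrays 3 and 4 the rise was 1.44, and without arrays 1 and 2 it was 3.25. CAV1, the caveolar coat protein, fell by 1.04 on day 1 (adjusted p = 0.000177), and by 3.76 as the mean of its probes, which disagree in size. On day 7 its difference of -0.66 was not called, but as the mean of its probes it was called at -1.31 (adjusted p = 0.000252). From day 1 to day 7 the change was 0.38 and not called, but 2.44 and called as the mean of its probes (adjusted p = 2.6e-05).

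The glucose uptake and glycolysis list had 17 of 49 genes measured, with 2 falling and 4 rising on day 1, and 4 falling and 6 rising on day 7. PKM, pyruvate kinase of most tissues, rose by 2.45 ± 0.10 (SE, adjusted p = 1.27e-06) on day 1 and by 3.18 ± 0.10 (SE, adjusted p = 9.88e-07) on day 7. ENO1, enolase 1, rose by 2.38 ± 0.21 (SE, adjusted p = 8.09e-05) on day 7. ALDOC, an aldolase, changed by -3.62 ± 0.85 (SE, adjusted p = 0.00617) on day 1 and by -2.76 ± 0.85 (SE, adjusted p = 0.027) on day 7. The day 7 call of ALDOC was lost without either day 7 sample, and its changes on day 1 and day 7 were -2.34 and -1.47 without sham arrays 3 and 4, and -4.91 and -4.05 without arrays 1 and 2. PYGM changed by -2.29 ± 0.32 (SE, adjusted p = 0.000774) on day 7, and by -1.82 without sham arrays 3 and 4 and -2.77 without arrays 1 and 2. The call of its day 1 change of -1.01 was lost without either day 1 sample. That change was -0.53 without sham arrays 3 and 4 and -1.48 without arrays 1 and 2. SLC5A2, a sodium-glucose cotransporter, rose by 1.86 on day 1 (adjusted p = 1.33e-05) and fell by 1.17 on day 7 (adjusted p = 0.000273), the latter not called with normexp background correction (-0.46). The widely used glucose transporter SLC2A1, looked at after its values were seen, stood at 13.10, 12.86 and 13.13 in sham, day 1 and day 7 and was not called in any comparison, beside the 33.7-fold and 155-fold lower levels of SLC2A4.

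**Figure D4:**
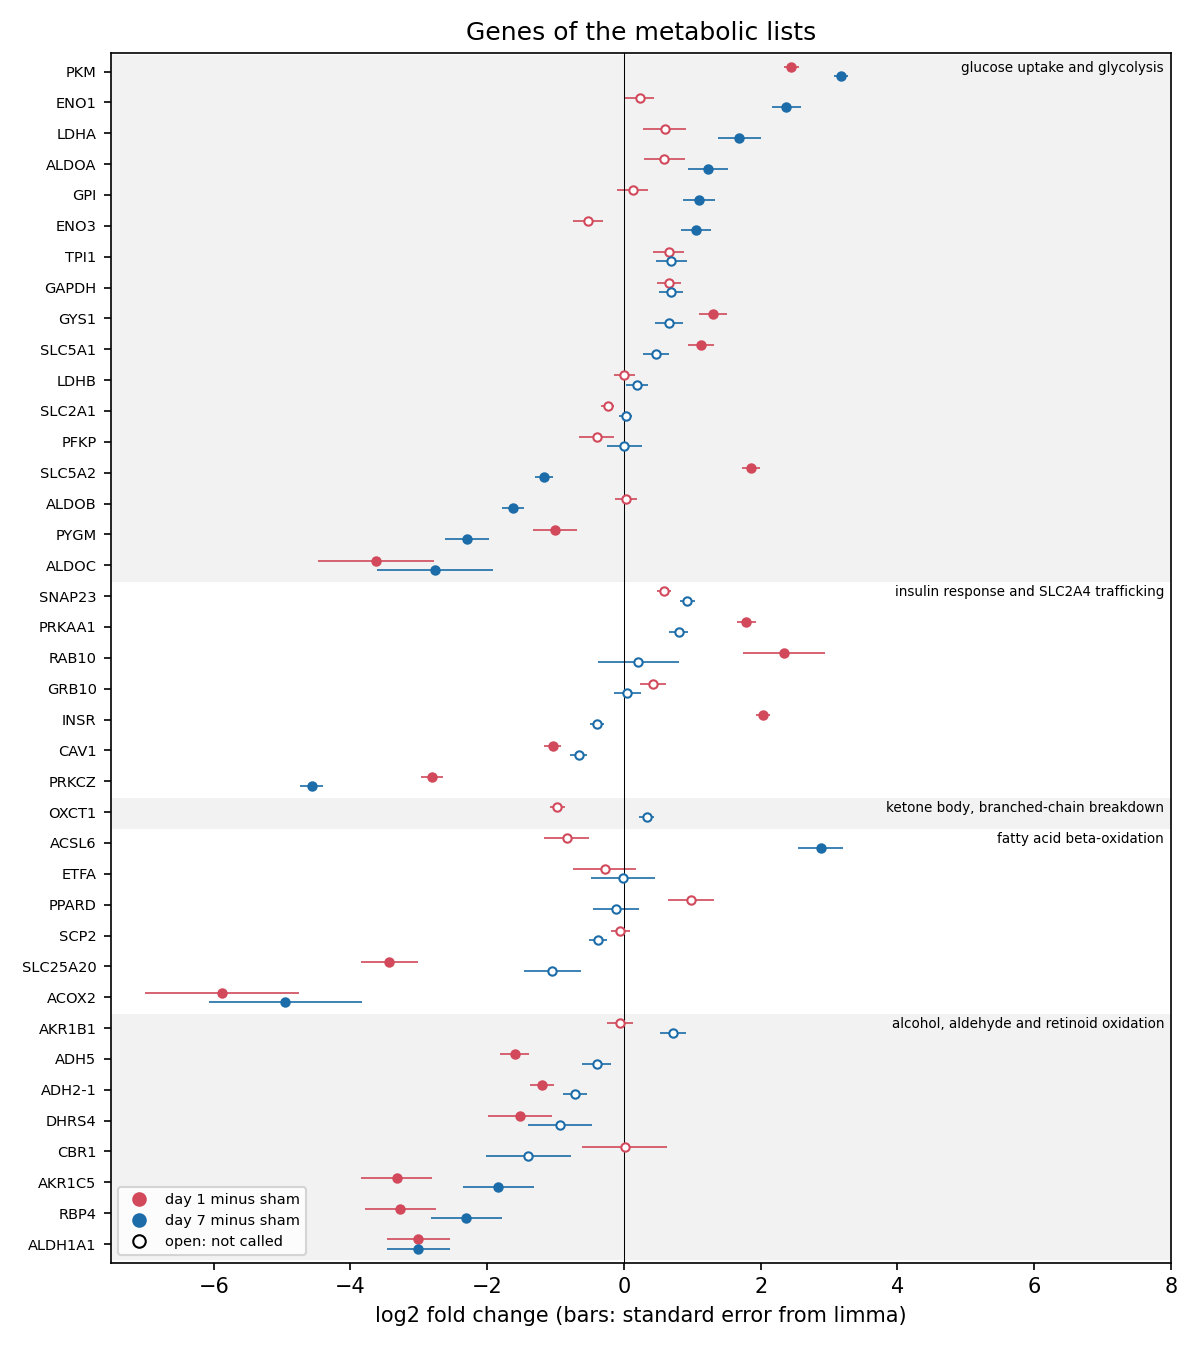
Log2 fold change from sham (x axis, bars are limma standard errors) of the 39 genes of the metabolic lists (y axis) on day 1 and day 7, with open points where limma made no call. The alcohol and retinoid genes lay at or below 0 except AKR1B1 on day 7 and CBR1 on day 1, and glycolytic genes such as PKM, ENO1 and LDHA lay above 0.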

How the data were processed

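RNA from rabbit vein was hybridised to 16 single-colour arrays. The deposited scanner files hold the processed signal intensity of each spot, made by the authors with Agilent Feature Extraction (9.1 per the labels, 11.0.1.1 per the file headers), which subtracts local background. A deposited table of log2 values, quantile-normalized by the authors in GeneSpring after low signals were removed, served as an alternative.

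Outlying or non-uniform spots were set missing and spots of a probe averaged. Log2 processed signals were quantile-normalized, and a probe was kept if all arrays of some group had it well above background (35751 of 43603, 19320 genes, brightest probe per gene). Genes were named through RefSeq (assembly mOryCun1.1, names and gene order only) by accession (3368 probes) or by the gene number that the study's supplementary table gives a transcript (2810 probes). The 3 groups were fitted in 1 limma model (limma 3.58.1, R 4.3.3) with Benjamini-Hochberg adjustment over all genes, and calls followed the authors' thresholds (adjusted p below 0.05, log2 change of at least 1). The model was tested on simulated data.

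Arrays whose differences (SD 0.092 to 0.115 on day 1, 0.062 to 0.085 on day 7) were below the spot noise (0.182 to 0.190) were averaged as 1 sample. Sham arrays differed by an SD of 0.263 within arrays 1 and 2 and 0.215 within arrays 3 and 4, against noise of 0.191 to 0.196. Between the pairs the SD was 0.728 to 0.739. The 4 were kept apart. If each pair came from 1 source, the standard errors and adjusted p-values against sham are too small. Bounds set the brighter group's mean against the lowest level well above background on each array, or the probe's own where higher. Samples were grouped by their labels. No pairing of samples by replicate number was seen.

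The 5 genes and all gene lists were chosen with earlier results of these data known. Of each pathway list, up to 2 called genes in each direction, those with the greatest change, were named for each day, besides the 3 genes most like each member and markers not above background in a whole group. Other settings tried were each array as a sample, the authors' values, scaling to the 75th percentile, normexp (offset 50), other filters, the mean of a gene's probes, replicate or scan blocks, leaving out each sample, and either sham pair.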

Additional observations from a re-analysis of the deposited data

Results flagged for a closer look

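The HMGCLL1 probe A_04_P080398 had 1 sham sample away from the other 3, at 9.02 against 8.76 to 8.77, a gap of 0.949 of the whole range. This was 1 of 32 sham groups examined, and chance alone flags about 5% of such groups. ACSL6, INSR and SLC5A2 lay on opposite sides of sham on day 1 and day 7. ACSL6 had a log2 difference of -0.84 from sham on day 1 and 2.88 on day 7, and rose by 3.71 from day 1 to day 7 (limma, adjusted p = 0.000139). INSR had 2.04 on day 1 and -0.39 on day 7, a step of -2.43 between the days (limma, adjusted p = 6.77e-06). SLC5A2 had 1.86 on day 1 and -1.17 on day 7, a step of -3.03 (limma, adjusted p = 7.88e-06).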

How the results depend on the processing

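Over 18 settings each, no difference of the 5 genes from sham changed sign. The step from day 1 to day 7 ranged from -1.82 to -0.89 for ADH1A and from -2.38 to -1.55 for SLC2A4. For HMGCLL1 it ranged from -2.09 to -0.92, for ECI2 from 0.37 to 0.77 and for ECHS1 from 0.023 to 0.26. The difference from sham, by the brightest probe or as the mean of a gene's probes, ranged from -8.37 to -6.24 on day 1 and from -9.27 to -7.68 on day 7 for ADH1A, and from -5.65 to -4.50 and from -7.85 to -6.62 for SLC2A4. It ranged from -2.80 to -1.49 and from -2.57 to -1.26 for ECHS1, from -2.50 to -1.85 and from -1.82 to -1.38 for ECI2, and from -1.82 to -1.09 and from -3.49 to -2.01 for HMGCLL1. With normexp background correction, 6 of the 17 probes, not 10, were lower on day 7 than on day 1, and limma called 5462 genes on day 1, 3350 on day 7 and 3866 between the days, in place of 9825, 6031 and 8023. The cause was not tested. Scaling to the 75th percentile moved the median of all genes from 0.26 to 0.68 on day 1 and from -0.16 to -0.58 between the days, where 27.6% of calls were higher in place of 46.3%. Leaving out 1 sample gave 9344 to 9930, 5509 to 6080 and 7251 to 8113 genes called, 16 to 20, 11 to 17 and 10 to 15 list genes called, and the same 17, 17 and 10 probe counts. A block by replicate number needs each array as a sample, so arrays averaged elsewhere then count as separate. With this block, 10069, 6352 and 8506 genes and 20, 18 and 16 list genes were called, and SLC25A20 on day 7 was called at -1.05. With each array as a sample and no block, 10095, 6368 and 8511 genes were called, and SLC25A20 on day 7 was called as well. These calls therefore do not rest on the block. Same-numbered arrays did not deviate together (correlations from -0.014 to 0.047, with at most 2 of 6 numbers matching best). With 2 counted samples in each graft group, this cannot exclude a pairing of samples. In the grafts, arrays of the same number on both days shared a scan. With scan as a block, again with each array as a sample, 8533 genes were called between the days.

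Signs turned only for changes that were not called. Between the days, ALDH1A1 was at 0.0020 and became -0.038 with the authors' values, -0.23 with the 75th percentile and -0.030 as the mean of its probes, and lay between -0.046 and 0.050 when 1 sample was left out, and ACOX2 became -0.16 with the 75th percentile. ENO1 on day 1 became -0.066 without sham arrays 3 and 4. RAB10 on day 7 lay between -0.099 and 0.52 when 1 sample was left out and became -0.69 without sham arrays 3 and 4. It was called at 1.12 without sham arrays 1 and 2, where the spread between the sham pairs is taken away as well. The settings that leave out or average sham pairs were chosen after seeing the data.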
